A study of Rattus norvegicus with 12 samples.

Results

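The genes described here belong to cholesterol synthesis and its feedback control: Hmgcs1, Idi1, Fdps, Fdft1, Sqle, Lss, Dhcr7 and Insig1. They were chosen by gene symbol, with 1 probe per gene, on a rat bead array (Illumina RatRef-12 BeadChip) of 22517 probes, of which 13787 carried a gene symbol for 13336 genes. A probe was named for 5 of the 8 genes, Idi1, Fdps, Fdft1, Sqle and Dhcr7, and each had 1. Hmgcs1, Lss and Insig1 were not analysed here, as no probe was paired with their symbols.

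RNA came from the left ventricle of 12 Wistar rats, with 1 array per heart. An adeno-associated virus vector (AAV, serotype 9) had been injected into a tail vein, carrying human VEGF-B in 6 rats (AAV-VEGF-B) and human serum albumin, a secreted control protein, in 6 (AAV-HSA). In each of these vector groups 3 rats were females sampled after 2 months of expression and 3 were males sampled after 4 months, whose injection had been repeated. Sex, duration and the repeated injection therefore cannot be told apart. The methods describe vectors for different VEGF-B isoforms and the labels do not give which one these hearts received. The study describes the rats given the vectors as adult. The sources used here give neither the promoter of the vectors nor the exact age of the rats. The labels do not say whether the rats came from separate litters or cages, and p-values measure the spread between these hearts.

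Cells build cholesterol from acetyl-CoA through mevalonate and the isoprenoids. Idi1 and Fdps make the isoprenoid precursors, Fdft1 joins farnesyl units to squalene, Sqle oxidizes squalene, Lss closes the ring, and Dhcr7 carries out the last reduction on one route to cholesterol. When membrane cholesterol is low, the escort protein Scap brings the transcription factors SREBP-1 and SREBP-2, encoded by Srebf1 and Srebf2, to the Golgi, where they are cut and released to raise the genes of the pathway. Insig proteins hold Scap in the endoplasmic reticulum when sterols are plentiful. SREBP acts at promoters together with NF-Y, which binds CCAAT boxes.

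The promoters of Fdps and Idi1 are shown because these genes ran closest together from heart to heart among the 5 measured. They are stretches upstream of the start site from RefSeq (GRCr8), printed 5′ to 3′ on the strand of the gene, with the motif matches in capitals.
Fdps: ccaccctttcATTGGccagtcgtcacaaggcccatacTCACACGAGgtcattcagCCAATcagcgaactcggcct
Idi1: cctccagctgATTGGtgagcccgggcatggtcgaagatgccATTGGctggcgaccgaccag
The Fdps stretch lies at chr2:176804882-176804956 on the minus strand and begins at position -140 from the start site. The Idi1 stretch lies at chr17:66547540-66547600 on the minus strand and begins at position -76. Capitals mark CCAAT on either strand (ATTGG is its reverse complement) and, in Fdps, TCACACGAG, the core of the sterol regulatory element known from this gene.

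Of the 8 genes 6 had a promoter in the RefSeq table, and Sqle and Fdft1 did not. In the window from 250 bases before to 50 after the start, searched on both strands, CCAAT was found in 5 of the 6, with 2 matches each in Hmgcs1, Fdps and Idi1 and 1 each in Insig1 and Lss. It was found in 37.5% of 33469 rat promoters of the same length. TCACACGAG was found in Fdps alone of the 6 and in 0.123% of all promoters. TCACNCCAC, the classical sterol regulatory element, was found in 0 of the 6 and in 1.12% of all promoters. These motifs do not overlap in the sequences shown. They describe the sequence and say nothing of whether a factor was bound.

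Signals were background-corrected, quantile-normalized and put on the log2 scale, and the test took in 10281 probes that were above background (detection p below 0.05) in 3 or more hearts, the 5 genes among them. The linear models of limma with Benjamini-Hochberg adjustment over these probes gave 429 probes (4.17% of those tested) higher with AAV-VEGF-B and 106 (1.03%) lower. When arrays were scaled to a common median, 842 were higher and 27 lower, so that 96.9% instead of 80.2% of the calls were higher. Of the 5 cholesterol synthesis genes 0 were called higher and 0 lower, and 1 of the 5, Sqle, had an unadjusted p under 0.05 in limma, as had 2056 of the 10281 tested probes, which is about the same share. The median log2 change of the 5 genes was 0.05, beside -0.02 over all tested probes. As bulk tissue was measured, fewer cells of a type and less RNA per cell cannot be told apart.

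The hearts held cardiomyocyte markers at like levels in both vectors, with summed normalized signals of 190000 to 210100 in AAV-VEGF-B and 189500 to 216500 in AAV-HSA for 10 markers, of which 0 were called. The summed endothelial markers were higher with AAV-VEGF-B, 10450 to 12600 against 7658 to 9576, and 6 of 9 tested were called higher. Of the called ones, Cdh5 was above background on 4 AAV-VEGF-B and 0 AAV-HSA arrays. It passed the filter only through the AAV-VEGF-B hearts, so its call is a description. Not called were Egfl7 (0.52), Vwf (0.05) and Cldn5 (-0.11). Of the endothelial markers Robo4 was above background on no array. Of the 7 tested smooth muscle and pericyte markers 4 were higher, with summed signals of 4130 to 4676 against 3492 to 4278, and Cnn1 was above background on no array. The atrial genes summed to 7260 to 16400 in the AAV-VEGF-B hearts of 2 months and 1610 to 3560 in the AAV-HSA hearts of 2 months, against 610 to 2310 over all hearts of 4 months. Of the 3 tested atrial genes 0 were called with the vector within 2 months. Nppa stood at 2.05, Myl7 at 1.23 and Bmp10 at -0.02. Of the 6 tested macrophage markers 0 were called over all hearts, with a median change of 0.29 and 5 above 0, and C1qa was higher within 2 months (0.81, limma adjusted p = 0.028). Their summed signals were 1062 to 1661 with AAV-VEGF-B and 896 to 1414 with AAV-HSA. Array medians ran from 151.8 to 179.6 signal units, between 8827 and 9800 probes were above background, and pairs of arrays correlated at 0.988 to 0.995 across probes.

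Idi1 interconverts isopentenyl and dimethylallyl diphosphate, the building blocks of all isoprenoids. Its normalized log2 signal in the AAV-HSA hearts of 2 months was 6.73, 6.44 and 6.87, and in the AAV-VEGF-B hearts of 2 months 6.46, 6.68 and 6.63. After 4 months it was 6.47, 6.27 and 6.15 with AAV-HSA and 6.17, 6.42 and 6.88 with AAV-VEGF-B. The vectors overlapped in both durations, and the highest of all 12 values came from an AAV-VEGF-B heart of 4 months. The means were 6.54 ± 0.24 (SD, n = 6) with AAV-VEGF-B and 6.49 ± 0.27 (SD, n = 6) with AAV-HSA. The log2 change was 0.05 (SE 0.13, 95% interval -0.23 to 0.34, limma adjusted p = 0.87).

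Fdps makes farnesyl diphosphate, from which both sterols and the lipid anchors of proteins are built. Its log2 signal after 2 months was 8.20, 7.89 and 8.24 with AAV-HSA and 7.83, 8.10 and 8.15 with AAV-VEGF-B. After 4 months it was 8.34, 8.12 and 8.33 with AAV-HSA and 8.003, 8.40 and 8.66 with AAV-VEGF-B. The AAV-VEGF-B hearts of 4 months spread over more than the range of the AAV-HSA hearts of 4 months. The means were 8.19 ± 0.30 in AAV-VEGF-B hearts and 8.19 ± 0.16 in AAV-HSA hearts (SD, n = 6 each), a log2 change of 0.01 (SE 0.13, 95% interval -0.26 to 0.28, limma adjusted p = 0.99).

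Fdft1, squalene synthase, commits farnesyl diphosphate to sterols. Its log2 signal after 2 months was 9.68, 10.26 and 9.94 with AAV-HSA and 9.63, 9.73 and 9.98 with AAV-VEGF-B. After 4 months it was 9.99, 10.21 and 10.25 with AAV-HSA and 10.17, 9.70 and 10.17 with AAV-VEGF-B. Its change was the only one of the 5 below 0, at -0.16 (SE 0.13, 95% interval -0.43 to 0.11, limma adjusted p = 0.51), and the vectors overlapped in both durations.

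Sqle, squalene epoxidase, catalyses the first oxygen-requiring step of sterol synthesis and is one of its flux-controlling enzymes. Its probe was dim, detected above background in 6 of 6 hearts given AAV-VEGF-B and in 2 of 6 given AAV-HSA, so it passed the filter on dim probes only through the hearts given AAV-VEGF-B, in which it was brighter. Its comparison between the vectors is therefore a description, and that of Dhcr7 likewise. After 2 months the log2 signal was 5.83, 5.59 and 5.57 with AAV-HSA and 6.12, 6.07 and 6.09 with AAV-VEGF-B. No AAV-HSA heart reached the lowest AAV-VEGF-B heart, a separation that 11.1% of the tested probes showed in this direction. After 4 months it was 5.64, 5.43 and 6.15 with AAV-HSA and 5.81, 6.10 and 6.26 with AAV-VEGF-B, and the vectors overlapped through a single AAV-HSA heart, replicate 5.

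The Sqle mean was 6.08 ± 0.14 (SD, n = 6) with AAV-VEGF-B and 5.70 ± 0.26 (SD, n = 6) with AAV-HSA, a log2 change of 0.37 (SE 0.11, 95% interval 0.13 to 0.62), or a fold of 1.30. It did not pass the test over all probes (limma adjusted p = 0.071). An exact two-sided permutation test of Sqle alone over all 924 regroupings gave p = 0.024, and p = 0.03 with hearts exchanged within durations. It was 1 of 5 such tests without adjustment, and those of Fdps, Fdft1, Idi1 and Dhcr7 gave exact p = 0.97, 0.24, 0.74 and 0.087. Without AAV-HSA replicate 5 the change of Sqle was 0.46 (limma adjusted p = 0.012), without AAV-VEGF-B replicate 2 it was 0.43 (0.046), and with arrays scaled to a common median it was 0.41 (0.034). The Sqle probe passed the filter on dim probes only through the hearts given AAV-VEGF-B, so these changes and p-values are a description. Endothelial and smooth muscle markers moved with the vector as well, and their part in the Sqle values was not tested.

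Dhcr7, 7-dehydrocholesterol reductase, also had a dim probe, detected above background in 4 of 6 hearts given AAV-VEGF-B and in 1 of 6 given AAV-HSA. Its log2 signal after 2 months was 5.52, 6.03 and 5.501 with AAV-HSA and 6.21, 6.24 and 5.90 with AAV-VEGF-B. After 4 months it was 5.55, 5.61 and 5.70 with AAV-HSA, where no array was above background, and 5.63, 6.10 and 5.52 with AAV-VEGF-B. The brighter AAV-VEGF-B hearts were mainly those of 2 months, and the vectors overlapped in both durations. The log2 change over all hearts was 0.28 (SE 0.13, 95% interval -0.0027 to 0.57, limma adjusted p = 0.26).

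**Figure D1:**
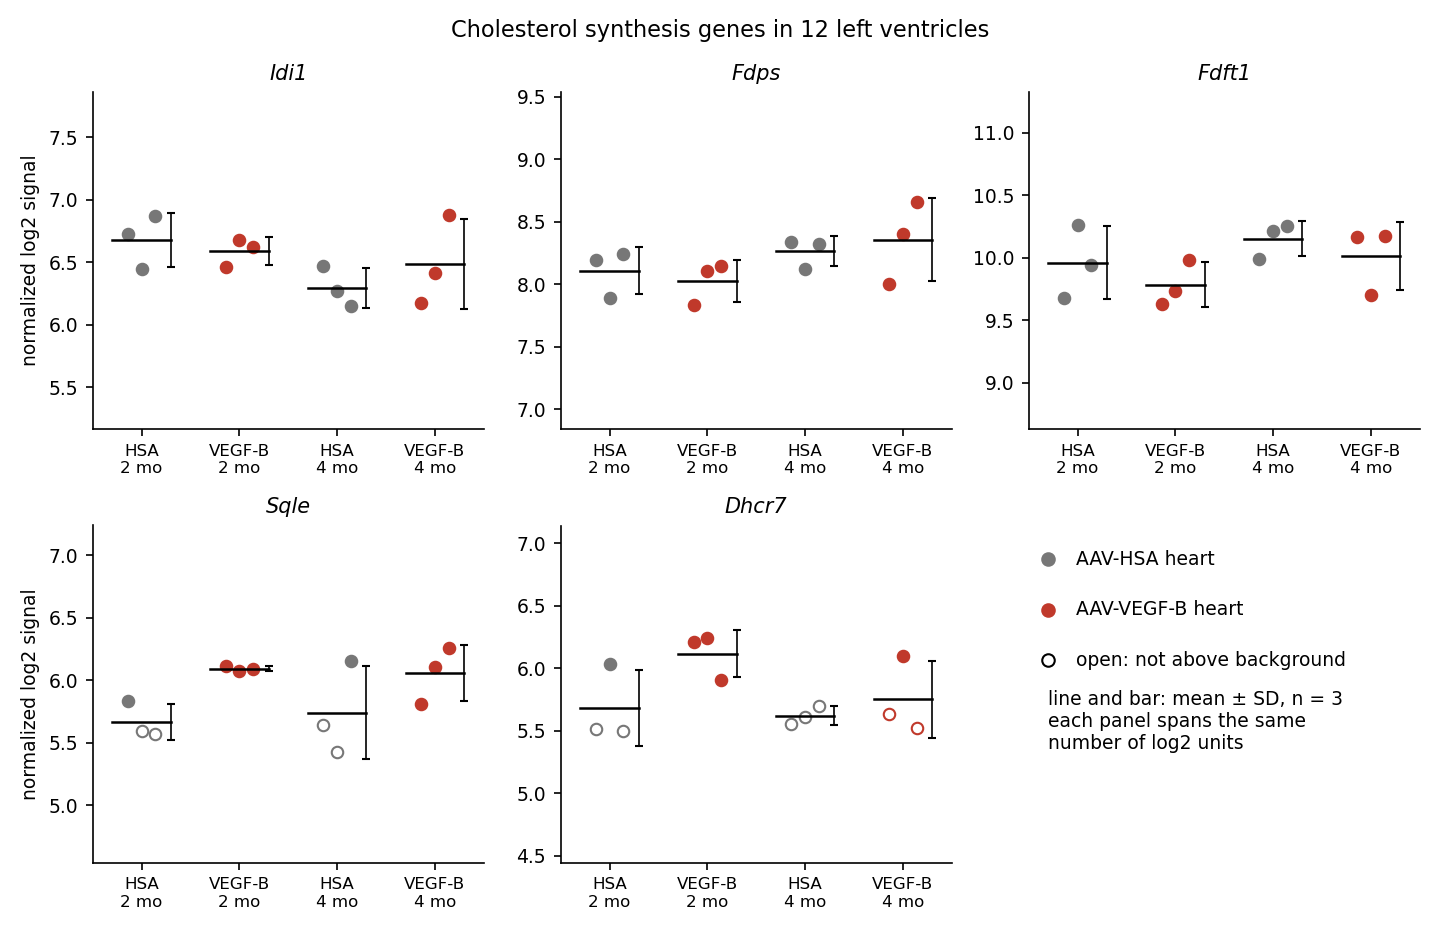
Normalized log2 signal (y axis) of the 5 genes in each of 12 hearts by vector and duration (x axis), with the mean and SD of 3 hearts per group, open points not above background. The vectors overlap in every panel, taken over all hearts, and Sqle after 2 months lies at 6.07 to 6.12 with AAV-VEGF-B above 5.57 to 5.83 with AAV-HSA. Of all tested probes 11.1% separated in this direction after 2 months. The Sqle and Dhcr7 probes passed the filter on dim probes only through the AAV-VEGF-B hearts.

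Within 2 months 260 probes (2.53%) were higher and 81 (0.788%) lower with AAV-VEGF-B, and within 4 months 77 (0.749%) were higher and 4 (0.0389%) lower. Of the 5 genes 0 were called in either duration, in either direction. Sqle and Dhcr7 had the highest changes of the 5 after 2 months, 0.43 (SE 0.17, limma adjusted p = 0.19) and 0.43 (SE 0.17, limma adjusted p = 0.20). After 4 months Sqle stood at 0.32 (SE 0.17, limma adjusted p = 0.51) and Dhcr7 at 0.13 (SE 0.17, limma adjusted p = 0.84). Dhcr7 was detected in 0 of 3 AAV-HSA and 1 of 3 AAV-VEGF-B hearts of 4 months, and its change there ran from -0.045 to 0.24 when single hearts were left out, so no direction is read from it. The change of Fdft1 was -0.18 and -0.14 in the 2 durations.

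Idi1 and Fdps had changes below 0 after 2 months (-0.09 and -0.08) and above 0 after 4 months (0.19 and 0.09). These signs were not stable: over the alternatives the change ran from -0.21 to 0.092 for Idi1 and from -0.19 to 0.11 for Fdps after 2 months, and from -0.00082 to 0.35 and from -0.060 to 0.27 after 4 months. The difference between the durations was 0.28 (SE 0.24) for Idi1, 0.18 (SE 0.23) for Fdps and -0.30 (SE 0.24) for Dhcr7, with limma adjusted p between 0.97 and 0.99 over the 5 genes. Over all probes 0 passed this test of the difference in limma, and 542 had an unadjusted p under 0.05. After 4 months the 3 AAV-VEGF-B hearts were separate from and above the 3 AAV-HSA hearts for 9.56% of the tested probes, and for 0 of the 5 genes.

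**Figure D2:**
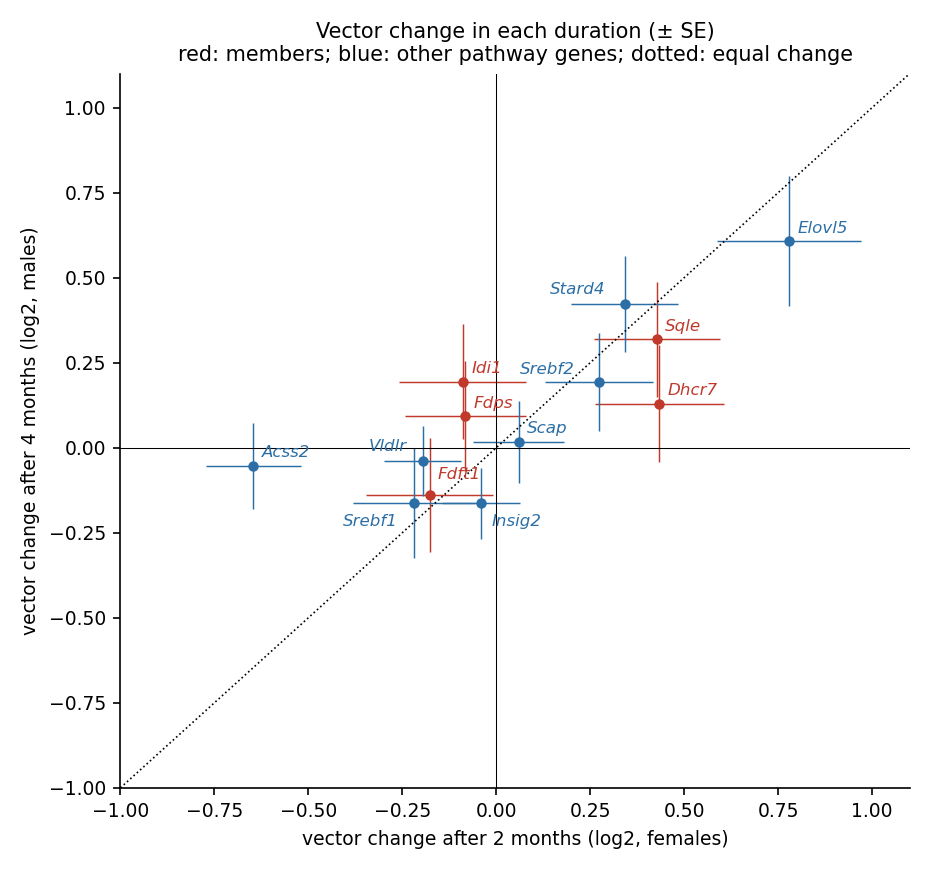
Log2 vector change after 2 months (x axis, females) against that after 4 months (y axis, males), with SE, for the 5 cholesterol synthesis genes (red) and 8 other genes of the pathway (blue); the dotted line marks equal change. Elovl5, Stard4 and Sqle lie near the line in the upper right, while Acss2 stands at -0.65 after 2 months and -0.05 after 4 months.

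Between 4 and 2 months, averaged over the vectors, 46 probes (0.447%) were higher and 63 (0.613%) lower after 4 months, and of the 5 genes 0 were called. Fdps and Fdft1 stood 0.24 (SE 0.11, limma adjusted p = 0.31) and 0.21 (SE 0.12, limma adjusted p = 0.40) higher after 4 months on the log2 scale. Idi1 and Dhcr7 stood at -0.24 (SE 0.12, limma adjusted p = 0.33) and -0.21 (SE 0.12, limma adjusted p = 0.41). Sqle stood at 0.02 (SE 0.12, limma adjusted p = 0.95). The Idi1 difference was -0.39 within the AAV-HSA hearts and -0.10 within the AAV-VEGF-B hearts.

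A shared variation of the 5 genes from heart to heart was not detected. After the means of the 4 groups were subtracted, the correlation of each gene with the mean of the other 4 over 12 hearts was 0.37 for Sqle, 0.53 for Fdps, -0.27 for Fdft1, 0.16 for Idi1 and -0.41 for Dhcr7 (Pearson r). Spearman's rho was 0.24, 0.41, -0.23, 0.11 and -0.48 in the same order. Exact permutation within the groups, 1296 arrangements, gave p adjusted over the 5 genes of 0.64 to 0.73 for r and 0.73 to 0.78 for rho. Without the 2 hearts farthest from the median r was -0.06 for Sqle, 0.31 for Fdps, -0.39 for Fdft1, 0.11 for Idi1 and -0.49 for Dhcr7.

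Among the 10 pairs, the adjacent enzymes Idi1 and Fdps had the highest correlation. Their deviations from the group means correlated at r = 0.87 (exact permutation p = 0.015, adjusted over 10 pairs 0.15) and rho = 0.88 (exact permutation p = 0.0069, adjusted 0.069). Without the 2 hearts farthest from the median r was 0.71. The values of the 12 hearts without this subtraction correlated at 0.34, and after 4 months Fdps stood higher and Idi1 lower than after 2 months. The pair was singled out after the values were seen and fails the correction. The others ran from -0.53 for Idi1 with Dhcr7 to 0.55 for Sqle with Fdps.

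**Figure D3:**
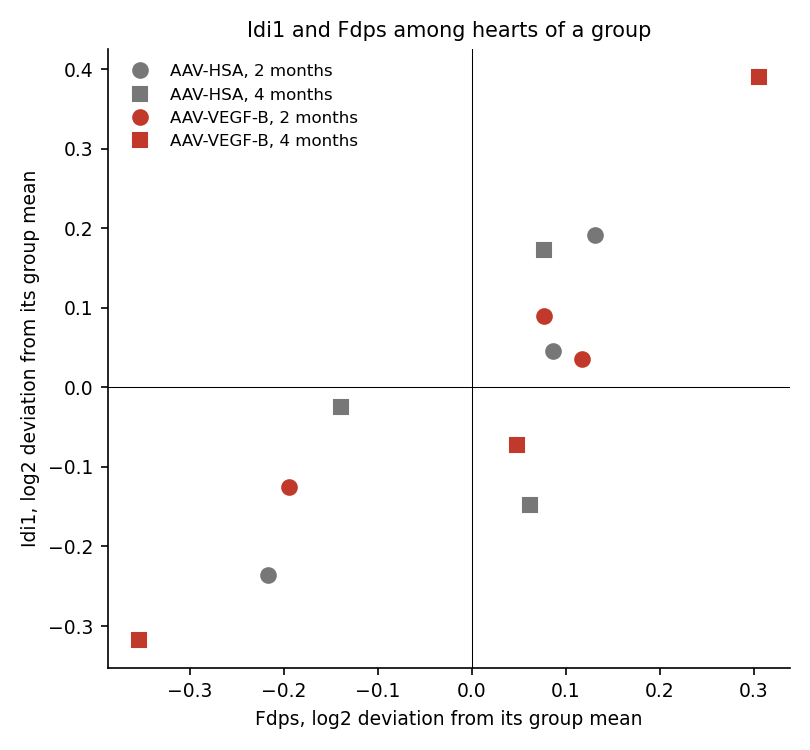
Deviation of Idi1 (y axis) against that of Fdps (x axis) from the mean of their group on the log2 scale, with 1 point per heart, 3 in each of 4 groups. The AAV-VEGF-B hearts of 4 months hold both the lowest and the highest point, and r is 0.87 over all 12 hearts and 0.71 without 2 of them.

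The genes most like the 5, by the Pearson correlation of 12 values with the mean of the 5, were Tmem123 (0.819), Ctu1 (0.811), Lrrc59 (0.793), Sbno2 (0.788) and Xpc (0.785), out of 7388 genes. After the group means were subtracted they were Or52n4e (0.933), Ring1 (0.918), Tcaim (0.914), Satb1 (0.90) and Zc3h12a (0.883). The 79 other pathway genes listed were left out of the genes compared, so none of them could appear here. The lowest correlations reached -0.901 and -0.945, so values of this size stood on both sides among the genes compared.

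For the rest of the pathway 79 genes were listed beside the 8, in 6 groups. Of these 60 had a named probe and 44 were tested. Of the 44, AAV-VEGF-B hearts were higher for 2 and lower for 0, close to the 4.17% and 1.03% of all tested probes, while 42 were not called, with a median log2 change of 0.02. Of the 7 tested genes of the other mevalonate steps 0 were called, with changes from -0.13 for Mvd to 0.05 for Acat2. Of the 5 tested genes of the sterol steps after squalene 0 were called, with changes from -0.11 for Hsd17b7 to 0.14 for Ebp. Cyp51, the demethylase of lanosterol, was above background on 0 of 12 arrays and was not tested.

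Of the 8 tested genes of SREBP control 0 were called. The mean of Srebf2, which encodes the SREBP of cholesterol synthesis, was 5.87 ± 0.08 (SD, n = 6) with AAV-VEGF-B and 5.64 ± 0.23 (SD, n = 6) with AAV-HSA. Its change of 0.23 (SE 0.10, limma adjusted p = 0.19) rested on a dim probe, above background on 5 AAV-VEGF-B and 2 AAV-HSA arrays. Like Sqle, Srebf2 passed the filter only through the AAV-VEGF-B hearts, so its comparison is a description. Srebf1, whose product mainly drives fatty acid synthesis, stood at -0.19 (SE 0.11, limma adjusted p = 0.35). Scap stood at 0.04 (SE 0.08, limma adjusted p = 0.84) and Insig2, the Insig that had a probe, at -0.10 (SE 0.08, limma adjusted p = 0.51).

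Of the 9 tested genes of lipoprotein uptake and cholesterol handling 1 was higher, Stard4, which encodes a carrier that moves cholesterol between membranes and is itself an SREBP-2 target. After 2 months its log2 signal was 5.77, 5.84 and 5.79 with AAV-HSA and 6.25, 5.83 and 6.34 with AAV-VEGF-B. After 4 months it was 5.98, 5.55 and 5.87 with AAV-HSA and 6.30, 6.21 and 6.16 with AAV-VEGF-B. Only AAV-VEGF-B replicate 3 lay within the range of the AAV-HSA hearts.

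The log2 change of Stard4 was 0.38 (SE 0.10, 95% interval 0.18 to 0.59, limma adjusted p = 0.031), a fold of 1.30. The call is close to the threshold: it was lost in 9 of the 12 fits that left out 1 heart (adjusted p up to 0.069), those without AAV-HSA replicates 2, 3, 4 or 6 or AAV-VEGF-B replicates 1, 2, 4, 5 or 6, and without background correction (0.16, limma adjusted p = 0.071). Over all 20 alternatives that gave a value it was called in 9, with a limma adjusted p up to 0.073, and the change stayed above 0 in each. The endothelial and smooth muscle markers moved with the vector beside it, and their part was not tested. Npc2, which takes part in the export of cholesterol from lysosomes, stood at 0.24 (limma adjusted p = 0.060).

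Of the 8 tested LXR targets and efflux genes 0 were called. Apoe, the main lipid carrier of tissue macrophages and other cells, stood at 0.32 (SE 0.10, limma adjusted p = 0.076). The macrophage markers, at a median of 0.29, stood above 0 beside Apoe and Npc2, and their part was not tested. Abca1, the transporter that loads cholesterol onto lipoproteins, was above background on 1 array of 12 and was not tested.

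Of the 8 tested genes listed as SREBP targets, mainly of fatty acid synthesis, 1 was higher, Elovl5, an elongase of polyunsaturated fatty acids. The list also held Tmem97 and Mvd, and Mvd was counted with the mevalonate steps as well. After 2 months the log2 signal of Elovl5 was 6.52, 6.69 and 6.09 with AAV-HSA and 7.39, 7.08 and 7.18 with AAV-VEGF-B. After 4 months it was 6.54, 6.996 and 6.36 with AAV-HSA and 7.18, 7.51 and 7.03 with AAV-VEGF-B. The highest AAV-HSA heart stayed below the lowest of the 6 AAV-VEGF-B hearts, and the share of all probes that did so was not counted. The means were 7.23 ± 0.19 in AAV-VEGF-B hearts and 6.53 ± 0.31 in AAV-HSA hearts (SD, n = 6 each).

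The log2 change of Elovl5 was 0.69 (SE 0.13, 95% interval 0.41 to 0.97, limma adjusted p = 0.0061), a fold of 1.62. It was called under all 21 alternative settings run, with an adjusted p of at most 0.018 and a change from 0.33, without background correction, to 0.82. Within 2 months it was 0.78 (SE 0.19, limma adjusted p = 0.044) and within 4 months 0.61 (SE 0.19, limma adjusted p = 0.20), a difference of -0.17 between the durations (SE 0.27, limma adjusted p = 0.98). The call within 2 months was lost in 8 of 12 fits without 1 heart, those without AAV-HSA replicates 1, 2 or 6 or AAV-VEGF-B replicates 1, 2, 3, 5 or 6, with adjusted p up to 0.17. Endothelial and smooth muscle markers moved with the vector beside it, and their part was not tested.

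**Figure D4:**
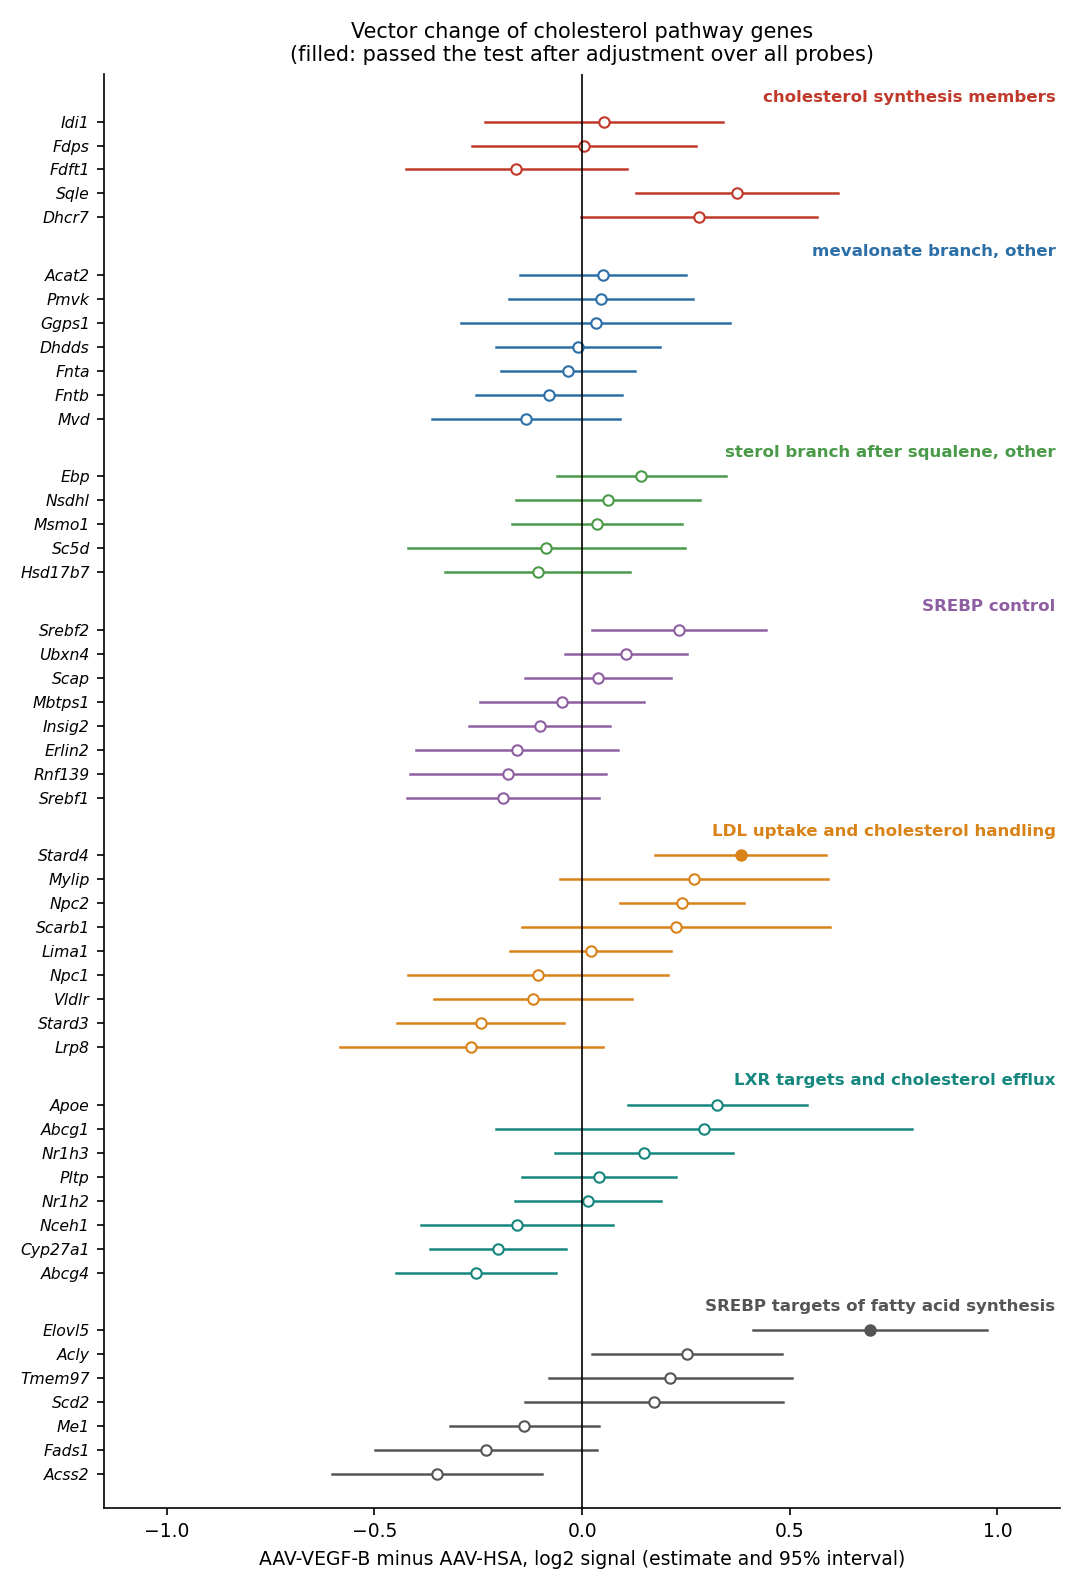
Log2 change of AAV-VEGF-B over AAV-HSA with its 95% interval (x axis) for the 5 cholesterol synthesis genes and 44 other tested genes of the pathway (y axis), grouped by list, filled where the gene passed the test. Stard4 at 0.38 and Elovl5 at 0.69 are the filled points, and Sqle at 0.37 has an interval above 0 but is not filled. The Sqle probe passed the filter on dim probes only through the AAV-VEGF-B hearts.

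Acss2, which makes acetyl-CoA from acetate for lipid synthesis, was called lower after 2 months. Its log2 signal after 2 months was 9.43, 9.73 and 9.90 with AAV-HSA and 9.14, 9.11 and 8.87 with AAV-VEGF-B, without overlap. How many of all tested probes separated downward in this way was not counted. After 4 months it was 9.48, 9.51 and 9.55 with AAV-HSA and 9.54, 9.46 and 9.38 with AAV-VEGF-B, with overlap. The change was -0.65 (SE 0.13, limma adjusted p = 0.017) after 2 months and -0.05 (SE 0.13, limma adjusted p = 0.93) after 4 months. The difference between these, 0.59 (SE 0.18), had an unadjusted p of 0.0054 and did not pass over all probes (limma adjusted p = 0.94). The call after 2 months was lost without AAV-HSA replicate 6 (-0.54, limma adjusted p = 0.069) or without AAV-VEGF-B replicate 5 (-0.56, limma adjusted p = 0.061). The summed atrial signal of the AAV-VEGF-B hearts of 2 months was 7260 to 16400 against 1610 to 3560, with Nppa at 2.05 (limma adjusted p = 0.063), Myl7 at 1.23 (limma adjusted p = 0.16) and Bmp10 at -0.02 (limma adjusted p = 0.96), none of them called, and the part of these genes was not tested.

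Vldlr, the receptor for very low density lipoprotein, which is abundant in heart muscle, was lower after 4 months than after 2 months. Its log2 signal after 2 months was 9.46, 9.57 and 9.59 with AAV-HSA and 9.31, 9.35 and 9.38 with AAV-VEGF-B. After 4 months it was 9.05, 9.14 and 9.21 with AAV-HSA and 9.004, 9.26 and 9.01 with AAV-VEGF-B. All 6 hearts of 4 months lay below all 6 of 2 months, and the share of all tested probes that did so was not counted. The difference was -0.33 (SE 0.07, limma adjusted p = 0.049). The call was lost in 12 of 12 fits that left out 1 heart (adjusted p 0.055 to 0.095), with the difference between -0.37 and -0.31. The atrial genes Nppa (-2.50, limma adjusted p = 0.015) and Myl7 (-1.43, limma adjusted p = 0.049) were lower after 4 months as well. The third tested atrial gene, Bmp10, stood at 0.23 (limma adjusted p = 0.38). Of the 10 tested cardiomyocyte markers 1 was called lower, Myh7 (-0.42, limma adjusted p = 0.029), and 0 higher. The part of these genes in the Vldlr values was not tested. The change of Vldlr with the vector was -0.12 (SE 0.11, limma adjusted p = 0.60).

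**Figure D5:**
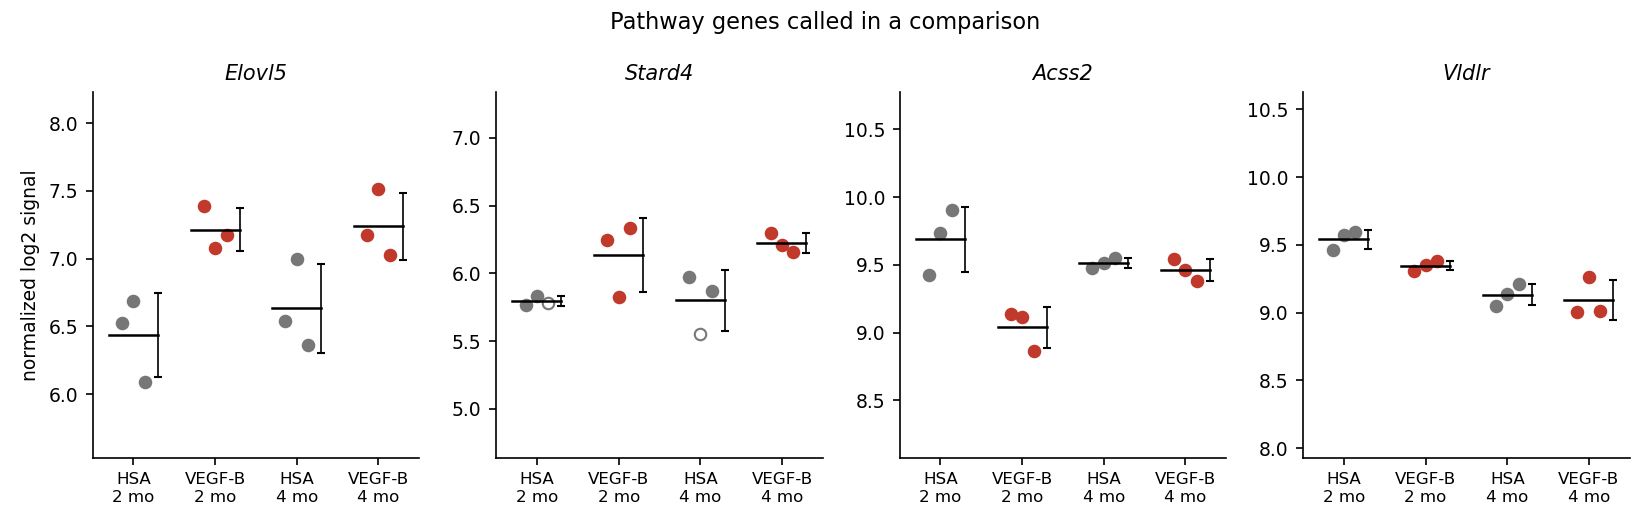
Normalized log2 signal (y axis) of the 4 other pathway genes that passed the test in a comparison, in each of 12 hearts by vector and duration (x axis), with mean and SD of 3 hearts per group, AAV-HSA grey, AAV-VEGF-B red, open points not above background. Elovl5 separates the vectors over all 12 hearts (7.03 to 7.51 above 6.09 to 6.996), Acss2 after 2 months, and Vldlr separates the durations. The share of all tested probes with such separations was not counted.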

How the data were processed

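The authors deposited non-normalized signal intensities from GenomeStudio. Each deposited intensity has its detection p-value. Log2 values were deposited in a second table, and they lie within 0.0093 of the log2 signals after quantile normalization without background correction, and each array's median is 7.36. Chipster was used for quantile normalization and empirical Bayes tests with Benjamini-Hochberg adjustment, per the supporting methods. The sources used here state no background correction or filter.

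Signals were normalized with neqc of the limma package (3.58.1, R 4.3.3; normexp with the detection p-values, offset 16, quantile, log2). Of 22517 probes the 10281 detected at p below 0.05 in 3 or more hearts were tested by lmFit and eBayes without covariates, and p-values were adjusted over all of them and called below 0.05. Means of the 4 combinations of vector and duration gave the changes within each duration, their difference, and the difference between the durations averaged over the vectors. Exact permutation tests are two-sided, with a smallest possible p of 0.0022 over 924 regroupings and 0.005 over 400 within durations. Fold changes of dim probes are compressed by the offset. Levels of different probes were not compared. The number of arrays, 6 per vector and 3 per vector and duration, limits the precision, and no 2 arrays held identical signals.

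Gene names came from the platform annotation in GEO, with 13787 probes of 1 symbol, 0 of several and 8730 unnamed here. A gene was given by its probe with the highest mean. All columns of per-sample values were used. Named throughout were the 8 genes, a fixed set of pathway genes that included Srebf1, Srebf2, Scap, Insig2, Cyp51 and Abca1, up to 4 called genes of each list by smallest p, and the 5 genes most alike. Some pathway genes are not reported here. Npc2, Apoe and the ends of list ranges were named after their values were seen. The genes, the lists and the tests were chosen with earlier results of these data known. Alternatives were no background correction, the deposited table, an offset of 50, median scaling, no filter, a stricter filter (detection p under 0.01 on 6 arrays), the mean of a gene's probes, a block for duration or replicate number, and leaving out each heart. The fits were tested on simulated data. Promoters came from RefSeq (GRCr8) and no genome was used.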

Additional observations from a re-analysis of the deposited data

Results flagged for a closer look

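The Stard4 value of AAV-VEGF-B replicate 3, 5.83 on the log2 scale, stood apart from the other 5 AAV-VEGF-B hearts, which lay between 6.16 and 6.34. Its gap to the nearest of them was 0.642 of the range of the group. It was 1 of 28 vector groups of named genes checked, of which chance flags about 1 in 20. Without this heart the Stard4 change was 0.45 (limma adjusted p = 0.0066).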

How the results depend on the processing

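Of the 5 cholesterol synthesis genes 0 were called higher or lower with the vector, within either duration, between the durations or in the difference between durations, and this held under every alternative run except in the count of genes higher with the vector. That count was 1, Sqle, with arrays scaled to a common median, and 0 to 1 when single hearts were left out, with 1 without AAV-HSA replicate 5 or without AAV-VEGF-B replicate 2. The cause was not tested. The Sqle probe passed the filter on dim probes only through the AAV-VEGF-B hearts, so these calls of Sqle are a description. The stricter filter left out Sqle and Dhcr7, and for them it gave no value.

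With single hearts left out the vector change ran from -0.089 to 0.077 for Fdps, below 0 without AAV-HSA replicate 3 (-0.0070) or 4 (-0.053) or AAV-VEGF-B replicate 4 (-0.037) or 6. It ran from -0.016 to 0.13 for Idi1, below 0 without AAV-HSA replicate 5 or AAV-VEGF-B replicate 6 (-0.015). With median scaling Insig2 (0.019) and Vldlr (0.014) stood above 0 in place of below. None of these was called in limma under either setting. The change of Sqle stayed above 0 in 20 of 20 alternatives, from 0.16 to 0.46. Its limma adjusted p was 0.012 to 0.14, and it was called in 3. These values of Sqle are a description, as its probe passed the filter only through the AAV-VEGF-B hearts. Stard4 was called in 9 of 20, with changes from 0.16 to 0.45. With median scaling the fall of Vldlr after 4 months was -0.28 (limma adjusted p = 0.12), and with no filter on dim probes Elovl5 within 2 months had an adjusted p of 0.079.

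Over all probes the alternatives gave 300 to 842 higher and 27 to 180 lower calls, against 429 and 106. Median scaling put the median of all tested probes at 0.08, beside -0.02. With the replicate number as a block, 300 probes were higher and 42 lower, and of the cholesterol synthesis genes 0 were called; Sqle then had an adjusted p of 0.13. Hearts of the same number differed in duration, and their deviations from the vector means correlated at -0.195 to -0.049. These deviations still hold the difference between the durations, so they cannot show whether the numbers pair the hearts. The block changed no other call of a named gene in the vector comparison. A chip block was not run, since the headers name no chip. The co-variation of the genes was called for 0 of 5 without background correction and with residuals from the vector means. The single-gene permutation test gave 1 of 5, Sqle, under both forms. These Sqle results are a description, since its probe passed the filter only through the AAV-VEGF-B hearts. Precision is limited for Sqle, Dhcr7, Srebf2 and Stard4, whose probes were not above background on every array.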

Other observations

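Mvd, the decarboxylase that ends the mevalonate steps, had the same kind of duration difference as Acss2, chosen here after its values were seen. Its vector change after 4 months exceeded that after 2 months by 0.49 (SE 0.16), with an unadjusted p of 0.0089 in limma and an adjusted p of 0.94 over all probes.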
